A study of Astyanax mexicanus with 96 samples.

Results

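Neutrophils and macrophages, blood cells that enter a damaged heart, were followed through 17 genes in the ventricle of the Mexican tetra, Astyanax mexicanus. The genes were chosen by symbol alone, in upper or lower case and with every copy: mpx, lyz and ncf1 as whole symbols, and any symbol that begins with csf3r, mpeg1, csf1r, marco, spi1b, lcp1 or coro1a. Of 27420 genes in the count table, 17 matched, and 9 of the 10 symbols were found; no gene was named marco, and mpeg1 is listed as MPEG1. The 17 genes were csf3r, ncf1, csf1ra, csf1rb, spi1b, lcp1, coro1a, lyz, 5 genes named LYZ, 2 named MPEG1 and 2 named mpx. Copies of 1 symbol are told apart here by the last 5 digits of their Ensembl identifier, so that LYZ 31427 is ENSAMXG00000031427. A filter of at least 1 CPM (counts scaled to the same total in each library) in at least 1 library kept 13 of the 17 and 18763 of all genes, and only these were tested.

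Neutrophils are usually the first leukocytes to reach damaged tissue and macrophages follow, clear debris and take part in scar formation and repair; in zebrafish, both enter the heart after cryo-injury. The genes fall into groups by role. The neutrophil group holds csf3r, the receptor for the growth factor that drives neutrophil production, ncf1, which encodes the organiser subunit of the phagocyte NADPH oxidase, lyz and LYZ, which encode lysozymes that break bacterial walls, and mpx, the myeloperoxidase of neutrophil granules. The macrophage group holds csf1ra and csf1rb, receptors for the factors that keep macrophages alive, and MPEG1, a pore-forming protein used to mark macrophages in zebrafish. Other myeloid cells can express these genes too, and csf1ra also serves pigment cells in zebrafish. Shared by both are spi1b (Pu.1), the transcription factor of the myeloid lineage, lcp1 (L-plastin), an actin-bundling protein of leukocytes, and coro1a, a leukocyte coronin.

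The series compared surface fish (SF), from a river population, with Pachón cavefish (PC), from a blind cave population, in 96 libraries from single ventricles of 2-year-old fish. Cryo-injury, in which a copper probe cooled with liquid nitrogen kills tissue at the ventricle tip, was sampled in both populations at 6 h (hpci, hours post cryo-injury) and at 1, 3, 7, 14 and 30 days (dpci). Sham surgery, with a probe at room temperature, was sampled at 6 h (hps) and at 1 and 3 days (dps). Each of these groups held 5 ventricles, and 3 ventricles of each population were uninjured, which gave 20 groups.

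Libraries held between 672292 and 2586602 counts (median 1687721.5), so that genes near 1 CPM rest on very few reads per library. As a check of the tissue, 5 cardiomyocyte genes (myl7, cmlc1, ryr2b, myh6 and MYH6) summed to a group mean of 13576 to 38219 CPM. At 6 hpci the sum averaged 26628 CPM in SF and 24605 CPM in PC, against 31267 CPM in SF and 28298 CPM in PC at 6 hps, with overlapping ranges. The ranges did not overlap at 1 dpci and 7 dpci in SF and PC, nor at 14 dpci in PC. In SF the sum was 13895 CPM (7898 to 21820) at 1 dpci, against 29125 CPM (21997 to 37307) at 1 dps. At 7 dpci in SF it was 15959 CPM (10487 to 20343), against 26937 CPM (24780 to 28741) in uninjured ventricles. In PC it was 19439 CPM (14207 to 30220) at 1 dpci, against 36082 CPM (32248 to 43787) at 1 dps. At 7 dpci in PC it was 13576 CPM (8453 to 19201) and at 14 dpci 22095 CPM (15090 to 30887). Uninjured PC ventricles had 33992 CPM (33184 to 34452). The part of the cardiomyocyte sum in the results was not tested. In all 96 libraries, 50 genes that separate the populations matched the label. In 3 libraries, chosen after their values were seen, some marker genes lay far above the other 4 of the group: lcp1 in PC 3 dps replicate 5 (690 CPM, against 60.0 to 111), LYZ 31427 in PC 14 dpci replicate 2 (718 CPM, against 18.2 to 58.4) and lyz in SF 3 dpci replicate 1 (132 CPM, against 0.864 to 7.32). Being the highest of a group in many genes was not particular to them, since 8 libraries were so in at least 6 of the 9 best-covered genes. Results that rest on the 3 libraries are given with and without them. In whole ventricles, fewer cells of a type and less RNA per cell cannot be told apart.

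Tests were made with edgeR's quasi-likelihood test over all genes, with Benjamini-Hochberg adjustment, and a gene was called at an adjusted p under 0.05 together with more than a 2-fold change. A factor of unwanted variation (RUVg), estimated from genes of low variation, entered the model. The study's own analysis also used RUVg, but with DESeq2, and does not state how many factors it used. Here 1 factor was used. That factor moved with the groups compared. Its mean ran from 0.188 in SF at 6 hps to -0.0736 in SF at 7 dpci, and from 0.0747 in PC at 6 hps to -0.178 in PC at 7 dpci, and it was higher in SF than in PC in each of the 10 conditions. Over the 96 libraries its correlation with log2 level was -0.77 for csf1rb, -0.67 for MPEG1 15353, -0.64 for csf1ra and for spi1b, -0.61 for lcp1, -0.57 for LYZ 31427, -0.45 for csf3r, -0.23 for ncf1 and 0.21 for lyz. The calls are therefore given for the fit with the factor and for the fit without it. Of 494 results (13 genes in 38 comparisons), 56 were called with the factor, 90 without it and 21 in both, all 21 in the same direction. How much of the factor is technical was not tested.

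**Figure D1:**
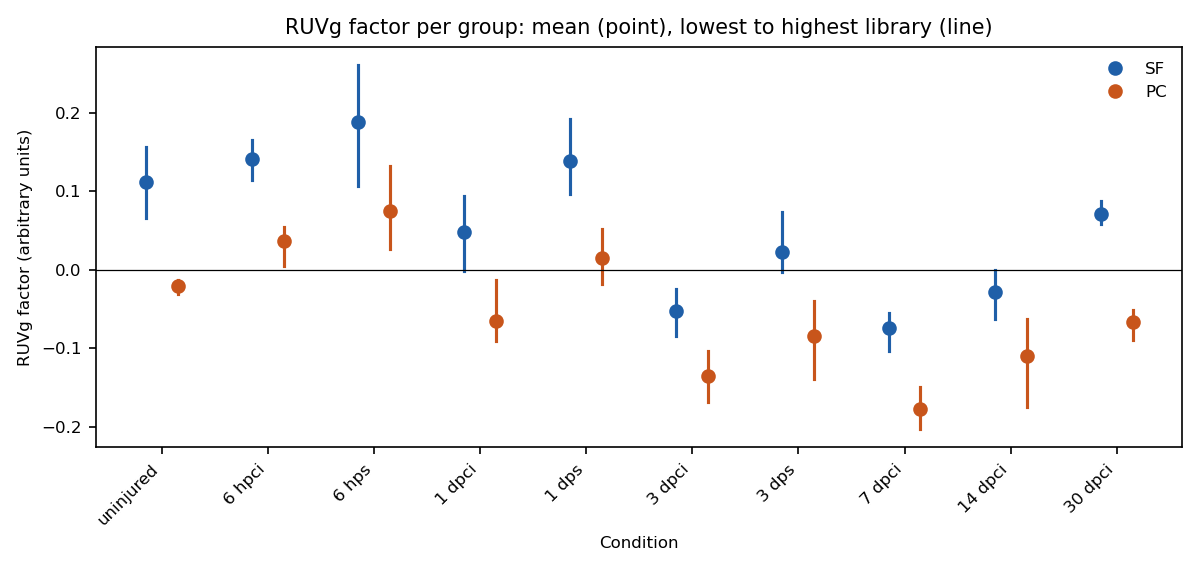
RUVg factor (y axis, arbitrary units) by condition (x axis) in SF (blue) and PC (orange), with the group mean as a point and the lowest to highest library as a line. SF lies above PC in every condition, and both populations are lowest at 7 dpci.

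Of the 17 genes, 8 were too sparse for a time course. LYZ 11433, LYZ 30483, MPEG1 15374 and mpx 18520 had 1 or 2 reads each in all 96 libraries and did not pass the filter. Both mpx copies together, the classic neutrophil marker, thus gave almost no reads: mpx 18553 had 6 reads in 4 libraries, 5 of them at 6 hpci (2 in SF and 3 in PC) and 1 at 1 dps in SF. LYZ 11455 had 12 reads, all in PC, and its model overlaps that of LYZ 11433 on the same strand, as the models of both mpx copies overlap each other. LYZ 36707 had 103 reads and coro1a 174. Libraries were read from the 3′ end, and whether the models of these 8 genes reach the true transcript ends was not tested, so their low counts do not show that they are silent. The other 9 genes averaged at least 5 CPM.

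The 9 genes lie at separate places of assembly Mexican tetra 2.0, in the annotation the authors deposited, and have 1248 (csf1rb) to 25242 (lcp1) reads in all. On chromosome 3 lie ncf1 (ENSAMXG00000007506, 11885291 to 11891789, plus strand) and lyz (ENSAMXG00000014017, 21716480 to 21721392, plus strand). On chromosome 10 lies csf3r (ENSAMXG00000001766, 20789171 to 20807890, plus strand), on chromosome 6 MPEG1 15353 (8250345 to 8257967, plus strand) and on chromosome 14 csf1rb (ENSAMXG00000008217, 21918214 to 21960277, minus strand). LYZ 31427 lies on scaffold APWO02000054.1 (383871 to 392622, plus strand) between LYZ 36707 (376754 to 383608) and LYZ 11433 and LYZ 11455 (395955 to 404988), a cluster of lysozyme copies among which reads may be shared. On other scaffolds lie spi1b (ENSAMXG00000041741, APWO02000032.1, 5139471 to 5163185, plus strand), lcp1 (ENSAMXG00000012855, APWO02000129.1, 114646 to 131813, plus strand) and csf1ra (ENSAMXG00000017088, APWO02000055.1, 139854 to 279805, plus strand). The lcp1 model overlaps cnot11 (723 reads) on the other strand. The csf1ra model spans pdgfrb (1256 reads) on its own strand and overlaps hmgxb3 (192 reads) on the other strand. Whether counting used the strand is not stated, so reads of these neighbours may have been assigned to either gene.

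The time of the highest mean level differed between the genes. In PC, lyz, csf3r and ncf1 of the neutrophil group were highest at 6 hpci. In SF, ncf1 was highest at 6 hpci, csf3r at 1 dpci, and lyz at 6 hpci once 1 library at 3 dpci was left aside. The SF mean of csf3r at 1 dpci, 13.4 CPM, includes 1 ventricle at 31.3 CPM, with the others at 6.16 to 10.8 CPM. At 6 hpci the SF mean of csf3r was 8.99 CPM. Its SF medians were 10.7 CPM at 1 dpci and 5.60 CPM at 6 hpci. In both populations lcp1, spi1b, MPEG1 15353, csf1ra and LYZ 31427 were highest at 3 dpci, and csf1rb at 7 dpci. LYZ 31427 was put in the neutrophil group by its symbol. By median it was higher at 1 dpci than at 3 dpci, at 126 against 75.1 CPM in SF and 218 against 145 CPM in PC. Some peaks were close to another time: ncf1 in SF at 3 dpci stood at 92.1% of its highest group mean, LYZ 31427 in PC at 1 dpci at 97.9% and csf1ra in PC at 7 dpci at 93%, and their ventricles overlapped. In PC at 6 hpci csf1ra stood at 45.9% and MPEG1 15353 at 17.7% of their own highest group mean. By 30 dpci lyz was at 26.9% of its own peak in SF and 2.33% in PC. That SF peak is the 3 dpci mean, which rests on 1 library. At 30 dpci lyz ran from 0.651 to 20.8 CPM in SF and from 0 to 9.03 CPM in PC. At that time csf3r was at 20.6% of its own peak in SF and 10.7% in PC, and ncf1 at 36.6% in SF and 8.55% in PC. The SF peak of csf3r is the 1 dpci mean, which includes the ventricle at 31.3 CPM. At 30 dpci csf1rb was at 11.7% in SF and 37.4% in PC, and csf1ra at 20.9% in SF and 34.7% in PC.

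**Figure D2:**
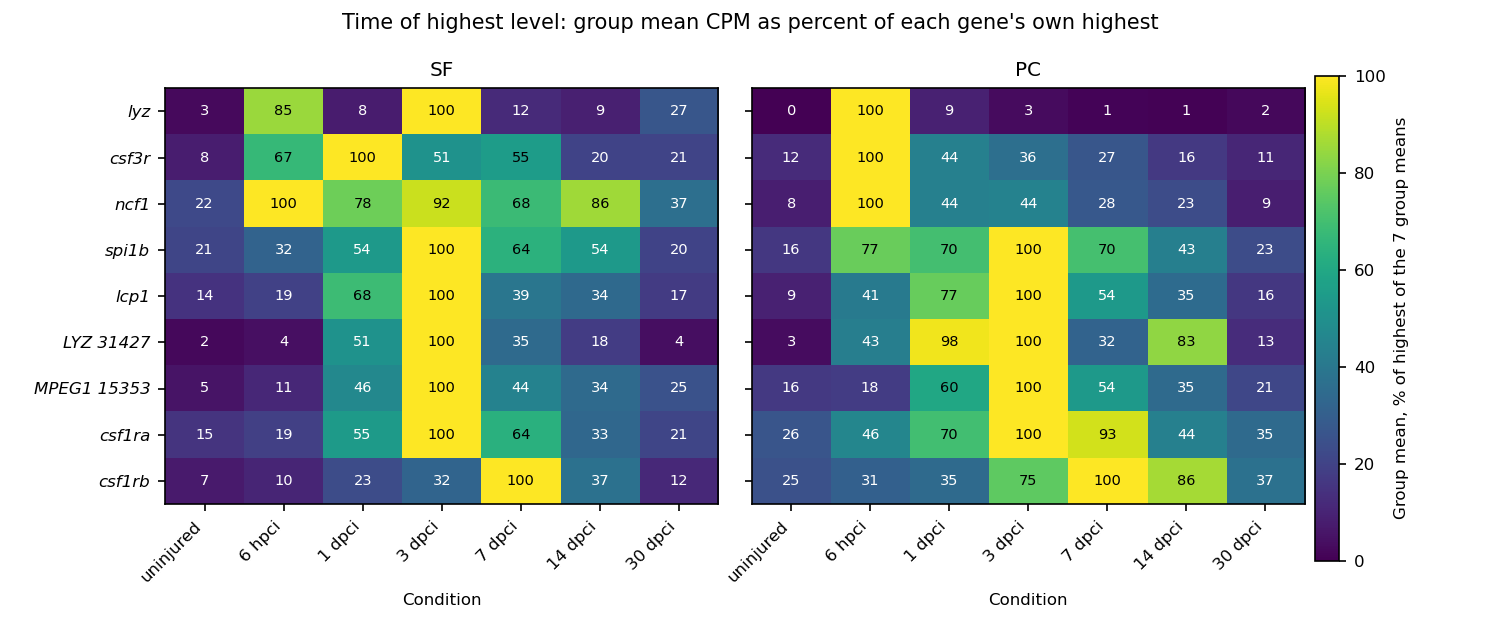
Group mean CPM of 9 genes (rows) as a percentage of each gene's own highest group mean over 7 conditions (columns), for SF (left) and PC (right). The 100% cell sits at 6 hpci for lyz, csf3r and ncf1 in PC, at 3 dpci for 5 genes in both populations and at 7 dpci for csf1rb; in SF the 100% of lyz at 3 dpci comes from 1 library.

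**Figure D3:**
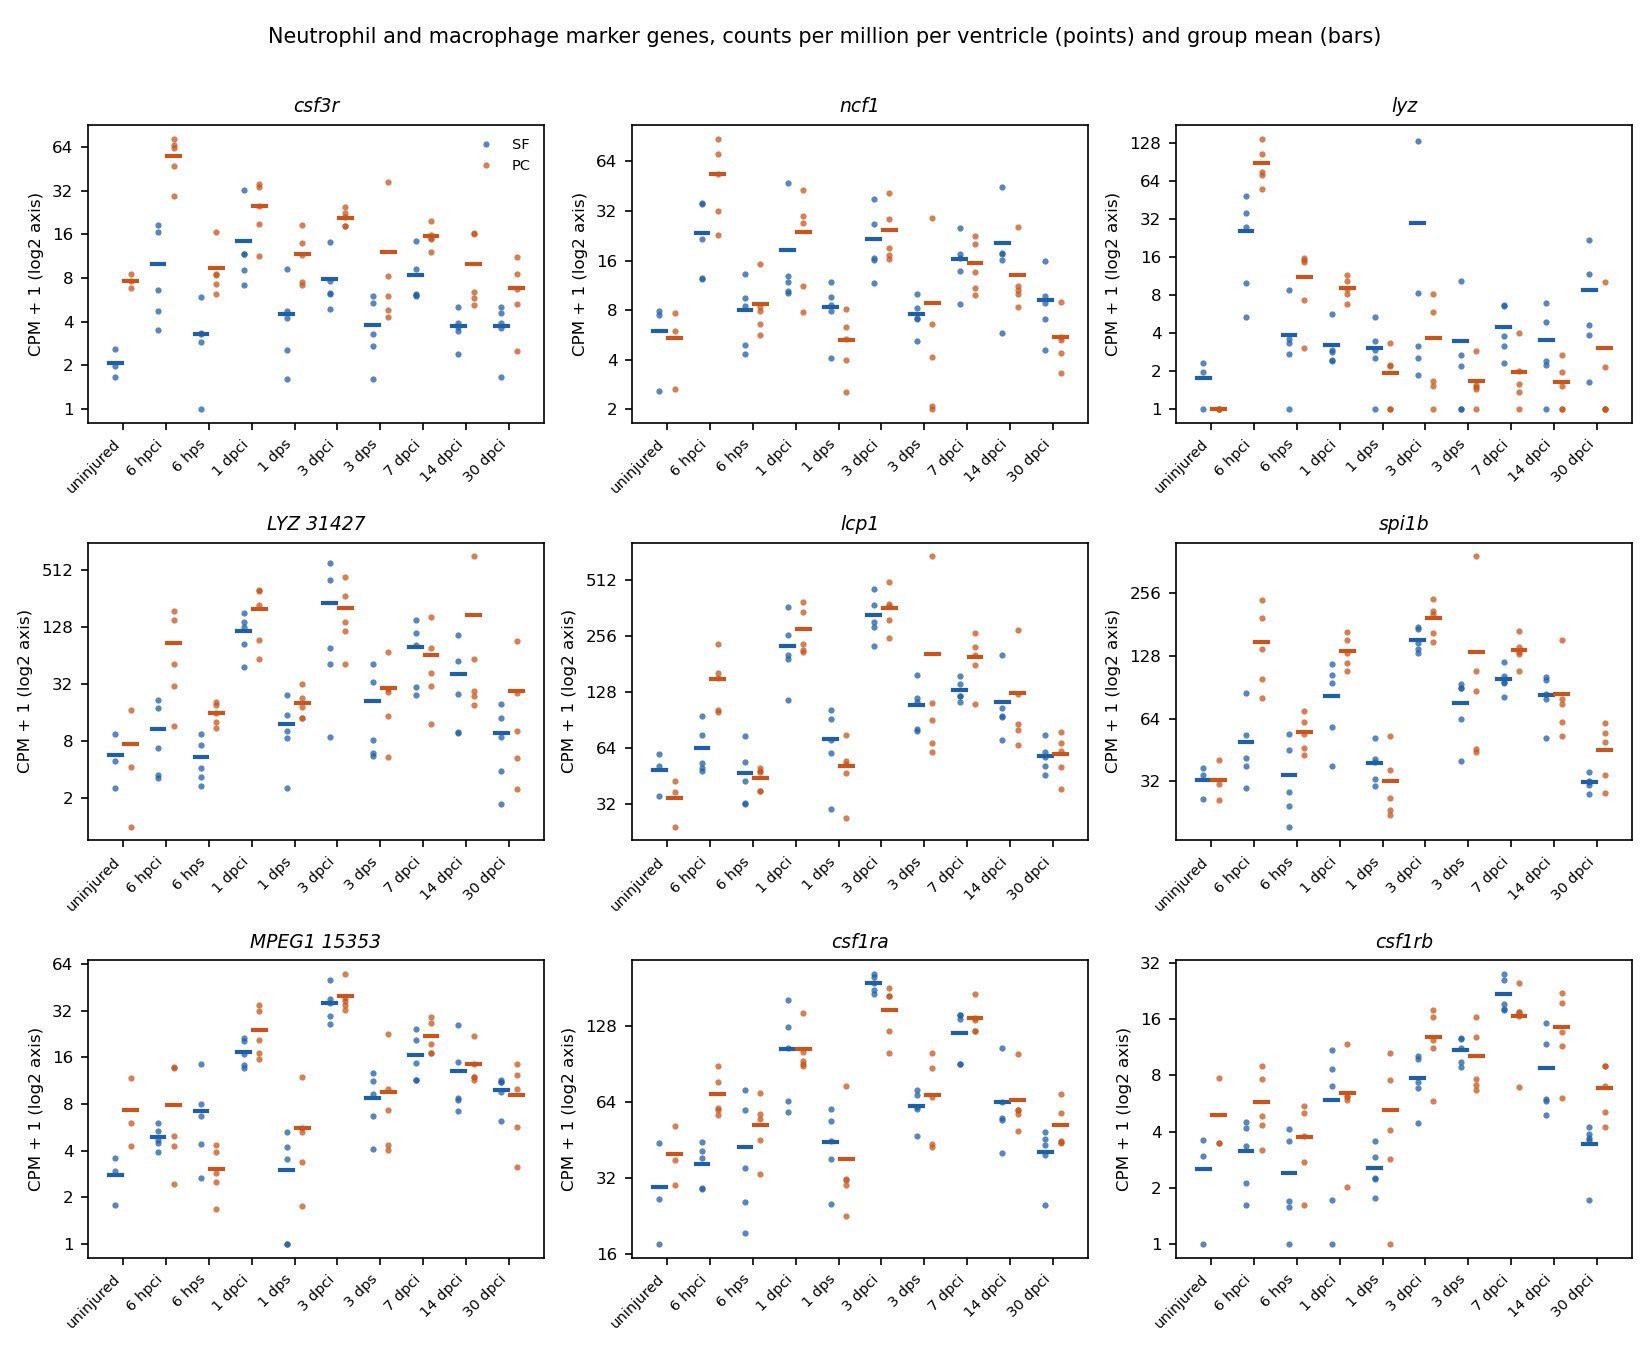
Level of 9 genes (y axis, CPM + 1 on a log2 axis) in each ventricle (points) with the group mean (bars), by condition (x axis), SF in blue and PC in orange. All 5 PC ventricles at 6 hpci lie above the 5 at 6 hps for csf3r, ncf1, lyz, lcp1 and spi1b.

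Among the neutrophil genes, csf3r, the receptor of the neutrophil growth factor, was high early in PC. At 6 hpci its CPM was 17.5, 5.60, 2.5, 3.71 and 15.7 in SF and 72.2, 61.7, 46.0, 65.1 and 28.6 in PC. At 6 hps it was 4.96, 2.34, 0, 2.30 and 1.92 in SF and 6.27, 5.25, 15.6, 7.52 and 7.41 in PC. Every PC ventricle at 6 hpci lay above every PC ventricle at 6 hps, whereas in SF the groups overlapped. In PC csf3r rose at 6 hpci with the factor (log2 fold change 2.06 ± 0.38 SE, edgeR adjusted p = 0.000118) and without it (2.69, adjusted p = 5.14e-06). Here and below, each replicate number was left out in turn from every group that held it, and any factor was estimated anew. A call lost in this way need not rest on a single ventricle of the groups compared. For csf3r in PC the leave-outs gave 1.43 to 2.81 with the factor, with the call lost without replicate 4. Without the factor they gave 2.48 to 3.07, with no call lost. In SF the values at 6 hpci were 1.28 ± 0.50 (adjusted p = 0.234) with the factor and 1.9 (adjusted p = 0.0486) without it, a call that was lost in each of the 5 leave-outs.

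At 1 dpci csf3r averaged 13.4 ± 10.2 CPM in SF and 23.9 ± 10.1 CPM in PC (SD, n = 5 each), at 3 dpci 6.84 ± 3.67 CPM in SF and 19.9 ± 2.77 CPM in PC, and at 30 dpci 2.76 ± 1.31 CPM in SF and 5.85 ± 3.28 CPM in PC. Uninjured ventricles held 1.07 ± 0.467 CPM in SF and 6.65 ± 0.869 CPM in PC (n = 3 each). The level was thus lower in SF than in PC in all 10 conditions, though the groups overlapped in some. SF lay below PC with no overlap in uninjured ventricles and at 6 hps, 6 hpci, 3 dpci and 14 dpci. Without the factor csf3r was called lower in SF at 6 hps (log2 -1.81), 1 dps (-1.59), 3 dps (-1.97), 6 hpci (-2.60), 3 dpci (-1.52) and 14 dpci (-1.73); with the factor it was called in none of these, with values of -0.19, 0.33, 0.02, -0.96, -0.23 and -0.25. At 3 dps the value without the factor was -0.76 (adjusted p = 0.432), and at 14 dpci -1.44 (adjusted p = 0.0703), once the 3 libraries that stand apart were left out.

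ncf1 was also high at 6 hpci in PC. At 6 hpci ncf1 had 34.4, 20.7, 11.3, 35.0 and 11.6 CPM in SF and 70.0, 31.2, 53.1, 87.2 and 21.9 CPM in PC, against 8.51, 3.91, 3.33, 7.47 and 12.2 CPM in SF and 5.57, 4.67, 6.87, 14.3 and 7.41 CPM in PC at 6 hps. The PC groups did not overlap and the SF groups did. In PC ncf1 rose with the factor (2.18 ± 0.42, adjusted p = 0.000233; not called without replicate 4, over a range of 1.46 to 2.84) and without it (2.78, adjusted p = 2.49e-05). In SF it missed the threshold in both fits (1.15 ± 0.44, adjusted p = 0.219, and 1.64, adjusted p = 0.056). From 1 to 14 dpci ncf1 averaged 15.4 to 20.8 CPM in SF and 12.1 to 23.5 CPM in PC, against 4.99 ± 2.97 CPM in uninjured SF ventricles and 4.44 ± 2.55 CPM in uninjured PC ventricles (n = 3 each).

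lyz stood high in PC at 6 hpci and low from 3 dpci on. At 6 hpci lyz had 26.8, 8.95, 4.38, 47.2 and 34.8 CPM in SF and 137, 70.5, 53.6, 73.9 and 104 CPM in PC. At 6 hps it had 7.80, 2.34, 0, 1.72 and 2.56 CPM in SF and 14.6, 14.0, 6.25, 13.5 and 2.02 CPM in PC. In PC the groups did not overlap, and in SF 4 of 5 ventricles at 6 hpci lay above all 5 at 6 hps. lyz rose in PC with the factor (2.54 ± 0.66, adjusted p = 0.0132; not called without replicate 4 or without replicate 5, over a range of 1.91 to 3.31) and without it (3.11, adjusted p = 0.000508, called in all 5 leave-outs). In SF the change of 2.59 ± 0.78 was not called with the factor (adjusted p = 0.0774) and the change of 3.04 was called without it (adjusted p = 0.0147), except where replicate 4 was left out.

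At 1 dpci lyz was at 2.24 ± 1.35 CPM in SF and 8.09 ± 1.84 CPM in PC (SD, n = 5 each), and from 3 to 30 dpci its mean in PC was 0.633 to 2.65 CPM. All 3 uninjured PC ventricles had no lyz read. PC ventricles at 6 hps held 3 to 24 reads, and taking 3 reads per library as the limit that a count of 0 allows, lyz was at least 4.05-fold higher at 6 hps than in uninjured PC ventricles. It was called in both fits (adjusted p = 0.00173 with the factor and 0.0199 without it), and without replicate 3 and the factor it was not (adjusted p = 0.0683). In SF at 3 dpci 1 ventricle, replicate 1, had 132 CPM of lyz and the other 4 had 0.864 to 7.32 CPM. The call of lyz as higher in SF than PC at 3 dpci (4.22 ± 0.78, adjusted p = 3.62e-05; 3.32 without the factor) and the call as lower in SF at 7 dpci than at 3 dpci (-3.04 ± 0.67, adjusted p = 0.00105; -3.06 without the factor) both rest on that ventricle. With the 3 libraries that stand apart left out they were 0.86 (adjusted p = 0.693) and -0.02 (adjusted p = 1.0) with the factor.

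The second well-covered lysozyme, LYZ 31427, did not follow lyz. Its mean in uninjured ventricles was 4.66 ± 3.52 CPM in SF and 6.4 ± 8.38 CPM in PC (n = 3 each), and at 3 dpci it was 227 ± 262 CPM in SF and 203 ± 151 CPM in PC (n = 5 each). At 1 dpci LYZ 31427 had 83.3, 180, 126, 144 and 47.7 CPM in SF and 57.8, 313, 309, 93.3 and 218 CPM in PC, against 7.52, 1.54, 14.2, 9.21 and 23.6 CPM in SF and 30.9, 13, 13, 17.2 and 21.6 CPM in PC at 1 dps. In neither population did these groups overlap. Without the factor the change at 1 dpci was called in SF (3.34, adjusted p = 0.00299) and in PC (3.35, adjusted p = 0.00176), in all 5 leave-outs of each. With the factor it was not called in SF (1.33 ± 0.80, adjusted p = 0.514) or in PC (1.45 ± 0.76, adjusted p = 0.398). The spread among ventricles of 1 group was wide: LYZ 31427 ran from 7.78 to 604 CPM in SF at 3 dpci, and PC 14 dpci replicate 2 had 718 CPM where the other 4 had 18.2 to 58.4 CPM. With the 3 libraries that stand apart left out, the call at 14 dpci in PC without the factor (4.74, adjusted p = 0.0069) was lost (2.31, adjusted p = 0.388).

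The sparse copy LYZ 36707, next to LYZ 31427, held 44 of its 103 reads in PC at 6 hpci (3 to 13 reads per ventricle) and 1 read in PC at 6 hps. It was called higher there with the factor (adjusted p = 0.0439) and without it (adjusted p = 0.00913). The call was lost without replicate 4 or 5 with the factor, and without replicate 2 in the fit without it (adjusted p = 0.0635). In SF at 6 hpci it had 2 reads in 5 ventricles.

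The shared myeloid genes had an early and a later level. lcp1 at 6 hpci had 95.0, 49.2, 47.5, 74.2 and 52.2 CPM in SF and 231, 98.8, 152, 162 and 102 CPM in PC, against 41.8, 53.1, 31.6, 31.0 and 73.5 CPM in SF and 36.9, 36.8, 46.9, 47.3 and 49.1 CPM in PC at 6 hps. At 3 dpci it reached 331 ± 90.0 CPM in SF and 363 ± 93.7 CPM in PC (SD, n = 5 each). The PC groups at 6 h did not overlap, and the SF groups did. In PC lcp1 rose at 6 hpci (1.17 ± 0.27, adjusted p = 0.00345 with the factor; 1.78, adjusted p = 0.000309 without it) and at 1 dpci (1.41 ± 0.28, adjusted p = 0.000817; 2.45, adjusted p = 5.36e-07). Both calls with the factor were lost without replicate 4 (adjusted p = 0.467 and 0.0631), and both held in the 5 leave-outs without the factor. In SF lcp1 was called only without the factor, at 1 dpci (1.68, adjusted p = 0.000391) and 3 dpci (1.6, adjusted p = 0.000362), where each SF cryo-injured ventricle lay above each sham ventricle, and with the factor the values were 0.45 ± 0.28 and 0.59 ± 0.27.

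In PC at 3 dpci lcp1 had 312, 249, 381, 372 and 501 CPM, against 111, 67.4, 89.4, 60.0 and 690 CPM at 3 dps. The 690 CPM of replicate 5 lay above all 5 cryo-injured ventricles, and the comparison was not called with the factor (0.47 ± 0.25, adjusted p = 0.371) or without it (0.83, adjusted p = 0.146). With the 3 libraries that stand apart left out, it was called with the factor (1.41, adjusted p = 1.48e-05) and without it (2.08, adjusted p = 5.44e-08). The calls of lcp1 and spi1b as higher at 3 dps than in uninjured PC ventricles, made with the factor, did not hold without the libraries that stand apart. For lcp1 the value was 1.37 ± 0.34 (adjusted p = 0.0189), and 0.80 (adjusted p = 0.156) with the 3 libraries that stand apart left out. For spi1b it was 1.41 ± 0.37 (adjusted p = 0.0246), and 0.95 (adjusted p = 0.147) with them left out. Without the factor both were called with those libraries left out (1.32 and 1.20).

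spi1b at 6 hpci had 84.5, 36.9, 28.8, 52.5 and 40.6 CPM in SF and 236, 98.8, 193, 137 and 79.7 CPM in PC, against 23.4, 44.5, 27.5, 18.4 and 53.1 CPM in SF and 52.9, 45.5, 41.9, 60.9 and 68.7 CPM in PC at 6 hps. Again the groups overlapped in SF and not in PC. In PC spi1b rose at 6 hpci (1.1 ± 0.29, adjusted p = 0.0129 with the factor, lost without replicate 3 or replicate 4; 1.47, adjusted p = 0.000716 without it). It rose in PC at 1 dpci as well (1.49 ± 0.31, adjusted p = 0.00124; 2.1, adjusted p = 1.24e-06), where 135 ± 24.0 CPM at 1 dpci stood against 31.2 ± 12.9 CPM at 1 dps (SD, n = 5 each). That call held in the 5 leave-outs of both fits, over 1.27 to 1.77 and 1.9 to 2.42. In SF at 1 dpci the values were 0.31 ± 0.32 (adjusted p = 0.791) with the factor and 1.1 (adjusted p = 0.0153) without it, a call that was lost without replicate 2 or replicate 3.

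coro1a had 31 of its 174 reads in PC at 3 dpci and 21 in SF at 1 dpci, at means of 3.51 CPM in PC and 1.79 CPM in SF, and was called in no comparison of either fit.

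Of the macrophage genes, MPEG1 15353 was called higher after cryo-injury in both populations. At 1 dpci it had 19.5, 12.6, 20.4, 15.9 and 13.3 CPM in SF, against 0, 0, 3.22, 4.30 and 2.55 CPM at 1 dps. At 3 dpci it had 36.9, 25.1, 49.7, 35.1 and 28.8 CPM in SF and 35.9, 31.3, 54.6, 37.6 and 33.8 CPM in PC, against 3.08, 8.29, 11.7, 10.3 and 5.68 CPM in SF and 8.98, 3.04, 6.30, 3.33 and 21.5 CPM in PC at 3 dps. None of these pairs overlapped. MPEG1 15353 rose in SF at 1 dpci (1.83 ± 0.50, adjusted p = 0.0295; 2.94, adjusted p = 1.19e-05 without the factor), in SF at 3 dpci (1.21 ± 0.39, adjusted p = 0.0344; 2.13, adjusted p = 3.8e-05) and in PC at 3 dpci (1.64 ± 0.36, adjusted p = 0.00185; 2.11, adjusted p = 0.000135). Without the factor all 3 held in each leave-out. With it, the call at 1 dpci in SF was lost without replicate 1, 4 or 5, at 3 dpci in SF without replicate 4 or 5, and at 3 dpci in PC without replicate 4. In PC at 1 dpci the mean was 23.1 ± 8.81 CPM, against 4.61 ± 3.88 CPM at 1 dps, called without the factor (2.23, adjusted p = 0.000149) and not with it (1.28 ± 0.42, adjusted p = 0.0822). At 6 hpci MPEG1 15353 was not called in either population: 3.90 ± 0.823 CPM stood against 6.25 ± 4.51 CPM at 6 hps in SF, and 6.84 ± 5.46 CPM stood against 2.07 ± 1.08 CPM in PC.

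csf1ra at 3 dpci had 170, 177, 206, 199 and 188 CPM in SF, against 67.0, 70.2, 59.2, 46.0 and 60.2 CPM at 3 dps, and 122, 99.3, 167, 181 and 167 CPM in PC, against 66.2, 41.5, 98.9, 42.8 and 86.6 CPM at 3 dps. Neither pair overlapped. It rose in SF at 3 dpci (1.26 ± 0.27, adjusted p = 0.000511, lost without replicate 4; 1.64, adjusted p = 1.66e-06 without the factor) and in PC at 1 dpci (1.09 ± 0.27, adjusted p = 0.0124, lost without replicate 4; 1.46, adjusted p = 5.99e-05). In PC at 1 dpci the mean was 103 ± 23.0 CPM, against 36.9 ± 20.4 CPM at 1 dps. In SF at 1 dpci it was 103 ± 43.7 CPM, against 43.4 ± 13.6 CPM, called only without the factor (1.25, adjusted p = 0.0006; 0.75 ± 0.28, adjusted p = 0.185 with it). At 3 dpci in PC the change passed the adjusted p but not the fold with the factor (0.87 ± 0.25, adjusted p = 0.0339) and both without it (1.13, adjusted p = 0.00231). At 6 hpci csf1ra was at 35.4 ± 7.05 CPM in SF, against 41.3 ± 22.3 CPM at 6 hps, and at 67.6 ± 13.8 CPM in PC, against 51.0 ± 13.6 CPM, and was called in neither fit.

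csf1rb, the second copy of the receptor, ran later and lower. It had 24.8, 27.0, 16.8, 18.3 and 17.1 CPM in SF and 16.4, 23.8, 5.96, 15.5 and 16.5 CPM in PC at 7 dpci, against 8.78, 3.46, 9.14, 6.34 and 5.86 CPM in SF and 10.2, 4.86, 16.9, 11.4 and 15.4 CPM in PC at 3 dpci. The groups did not overlap in SF and overlapped in PC. csf1rb was higher in SF at 7 dpci than at 3 dpci with the factor (1.35 ± 0.40, adjusted p = 0.021, lost without replicate 1, 2 or 3) and without it (1.62, adjusted p = 0.0114, lost without replicate 2). With the 3 libraries that stand apart left out, it was not called with the factor (1.34, adjusted p = 0.0584) and was called without it (1.76). At 3 dpci csf1rb had 6.72 ± 2.32 CPM in SF, against 9.92 ± 1.73 CPM at 3 dps, and the call as lower with the factor (-1.59 ± 0.47, adjusted p = 0.019) was lost without replicate 1, 2 or 3 and in the fit without the factor (-0.56, adjusted p = 0.495). The summed CPM of 7 epicardial and fibroblast genes was 1682 (1137 to 2087) in SF and 1659 (1104 to 2380) in PC at 7 dpci. At 3 dpci it was 525 (389 to 613) in SF and 553 (279 to 759) in PC. Most of this rise was in collagens, with col1a2 going from 320 to 1235 CPM in SF and from 307 to 1127 CPM in PC. TCF21 was lower at 7 dpci (69.2 to 49.0 CPM in SF and 69.2 to 47.4 CPM in PC). So was tbx18 (22.8 to 18.1 CPM in SF and 27.5 to 17.7 CPM in PC), whereas wt1a and wt1b were higher. The part of these genes in the csf1rb result was not tested.

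Across all 13 tested genes, the cryo-injured ventricles of each population were compared with sham at 6 h, 1 day and 3 days and with uninjured ventricles at 7, 14 and 30 dpci. In SF at 6 hpci 0 of 13 genes were called with the factor by edgeR (4 had an unadjusted p under 0.05, and DESeq2 called 0), against 0.65% of all genes, and 2 were higher without it, against 1.47% of all genes. In PC at 6 hpci 6 of 13 rose with the factor, against 2.17% of all genes, and 7 without it, against 3.3%. The median log2 change of the 13 genes was 0.20 in SF and 1.37 in PC with the factor, where the median of all genes was 0.03 in SF and 0.02 in PC.

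At 1 dpci 1 of 13 rose in SF with the factor, against 1.17% of all genes, and 6 without it, against 4.96%. In PC 3 of 13 rose with the factor, against 1.42%, and 7 without it, against 4.15%. At 3 dpci 3 of 13 were called in SF with the factor (2 higher and csf1rb lower), against 4.55%, and 7 were higher without it, against 7.37%. Of those 7, lyz rests on SF 3 dpci replicate 1 (3.45, adjusted p = 0.00038, and 0.13, adjusted p = 1.0, with the 3 libraries that stand apart left out), and ncf1 and spi1b were not called without those libraries (1.28, adjusted p = 0.0622, and 0.93). In PC 1 of 13 rose with the factor, against 1.89%, and 4 without it, against 3.33%. With the 3 libraries left out the counts in PC were 4 with the factor and 7 without it: lcp1, ncf1 (2.2, adjusted p = 0.00227; 3.04, adjusted p = 1.33e-05 without the factor) and spi1b (1.05, adjusted p = 0.0073; 1.39, adjusted p = 9.4e-05) were then called in both fits, and csf3r without the factor (1.95, adjusted p = 0.000957).

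**Figure D4:**
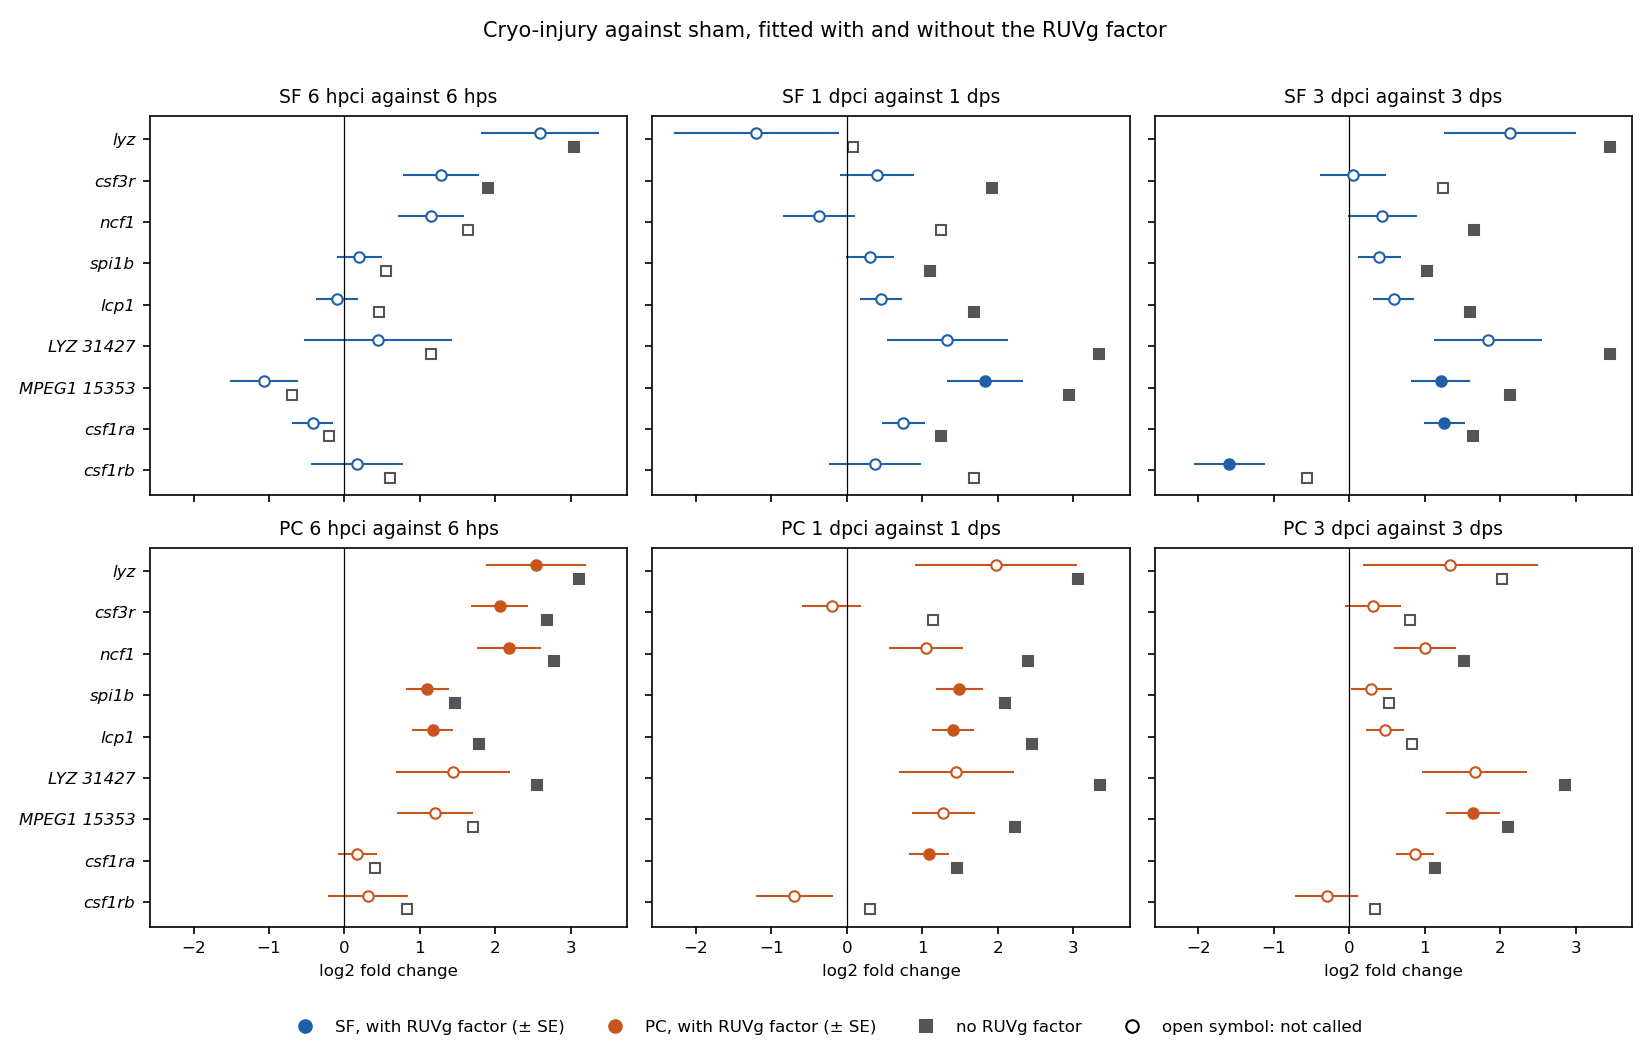
Log2 fold change (x axis) of 9 genes (y axis) for cryo-injury against sham at 6 h, 1 day and 3 days in SF (top row, blue) and PC (bottom row, orange) with the RUVg factor and its SE (circles), and without the factor (grey squares); filled symbols were called. In PC at 6 h the circles of lyz, csf3r, ncf1, spi1b and lcp1 are filled, and in SF none is.

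At 7, 14 and 30 dpci any call came from the fit without the factor alone. With the factor, edgeR called 0 of 13 genes in SF at 7 dpci (3.03% of all genes called; 3 of 13 with an unadjusted p under 0.05), 0 at 14 dpci (2.47%; 0 of 13) and 0 at 30 dpci (3.39%; 1 of 13). In PC it called 0 at 7 dpci (2.42%; 4 of 13), 0 at 14 dpci (0.432%; 2 of 13) and 0 at 30 dpci (0.474%; 0 of 13), and DESeq2 called 0 in all 6 comparisons. Without the factor 7 of 13 were higher in SF at 7 dpci (12.7% of all genes called), 6 at 14 dpci (7.63%) and 1 at 30 dpci (3.52%). In PC 6 were higher at 7 dpci (11.1%), 3 at 14 dpci (1.79%) and 0 at 30 dpci (0.538%; 0 of 13 with an unadjusted p under 0.05). With the 3 libraries that stand apart left out and no factor, 1 of 13 was called in PC at 14 dpci, lcp1 (1.4, adjusted p = 0.0165). There LYZ 31427 (2.31, adjusted p = 0.388) and spi1b (1.07, adjusted p = 0.104) were not called. The levels themselves stood apart at 7 dpci: csf1ra had 136, 141, 141, 89.5 and 89.8 CPM in SF and 137, 171, 121, 134 and 121 CPM in PC, against 43.1, 25.5 and 16.5 CPM in uninjured SF ventricles and 36.8, 29.1 and 50.4 CPM in uninjured PC ventricles. For lcp1 in SF at 7 dpci the fits differed in direction: the change was -1.06 ± 0.41 (adjusted p = 0.144) with the factor and 1.44 (adjusted p = 0.0107) without it, where 130 ± 17.4 CPM (SD, n = 5) stood against 48.0 ± 12.3 CPM (n = 3).

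Sham-operated ventricles were compared with uninjured ones, which asks what surgery without freezing did. In SF 1 of 13 genes, MPEG1 15353, was called higher at 6 hps with the factor, against 6.74% of all genes, and 0 without it, against 5.89% (1 of 13 with an unadjusted p under 0.05). At 1 dps in SF 0 of 13 were called by edgeR with the factor (8.85% of all genes; 3 of 13 with an unadjusted p under 0.05; 0 by DESeq2) and 0 without it (8.22%; 0 of 13). At 3 dps in SF 0 of 13 were called with the factor (2.38%; 2 of 13; 0 by DESeq2), and csf1rb, csf1ra and spi1b were higher without it (4.16%).

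In PC at 6 hps lcp1, lyz, spi1b, ncf1, csf3r and LYZ 31427 were called higher with the factor, 6 of 13 against 5.1% of all genes, and lyz alone without it, against 4.48%. For csf3r the PC groups were 6.27, 5.25, 15.6, 7.52 and 7.41 CPM at 6 hps, against 7.52, 6.65 and 5.78 CPM in uninjured ventricles, and they overlapped. The fitted change was 1.89 ± 0.55 (adjusted p = 0.0182) with the factor and 0.34 (adjusted p = 0.922) without it. At 1 dps in PC lcp1 was called with the factor (1 of 13 against 4.31%) and 0 without it (3.6%; 1 of 13 with an unadjusted p under 0.05). At 3 dps in PC lcp1 and spi1b were called in both fits (2 of 13, against 1.12% with the factor and 2.13% without it), and the value of replicate 5 and the fit without it are given with lcp1.

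The populations were compared with each other in each condition. Both were aligned to the same assembly, with an annotation named for surface fish. Whether sequence differences between the populations changed the counts was not tested. In uninjured and sham-operated ventricles, the fit with the factor called genes as higher in SF and none as lower. It called 1 of 13 in uninjured ventricles (5.78% of all genes), 3 at 6 hps (6.36%), 3 at 1 dps (7.39%) and 2 at 3 dps (6.68%). Without the factor it was 0 in uninjured ventricles (5.4%; 2 of 13 with an unadjusted p under 0.05) and csf3r alone, lower in SF, at 6 hps (5.61%), 1 dps (6.96%) and 3 dps (6.9%). After cryo-injury the fit with the factor called 0 at 6 hpci (6.92% of all genes; 2 of 13 with an unadjusted p under 0.05; 0 by DESeq2), 2 at 1 dpci (7.92% of all genes) and 2 at 3 dpci (6.44%). It called 4 at 7 dpci (5.38% of all genes), 2 at 14 dpci (7.88%) and 4 at 30 dpci (6.68%), and all of these were higher in SF. Without it 6 were called at 6 hpci (6.72% of all genes), 1 at 1 dpci (6.12%) and 2 at 3 dpci (5.92%), then 0 at 7 dpci (5.75% of all genes; 2 of 13 with an unadjusted p under 0.05), 1 at 14 dpci (6.53%) and 0 at 30 dpci (6.27%; 2 of 13). Apart from lyz at 3 dpci, these calls without the factor were all lower in SF. The factor moved the median of all genes to between 0.03 and 0.13 in these 10 comparisons, where it was 0.00 without it.

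Most of the population differences thus depended on the factor, and the levels of the genes called with it overlapped between SF and PC. lcp1 in uninjured ventricles had 50.3, 58.9 and 34.7 CPM in SF and 41.8, 23.3 and 36.4 CPM in PC, with a fitted difference of 2.29 ± 0.41 (adjusted p = 5.45e-05) with the factor and 0.50 (adjusted p = 0.626) without it. At 30 dpci lcp1 averaged 57.2 ± 11.1 CPM in SF and 58.8 ± 15.4 CPM in PC (SD, n = 5 each), with 1.84 ± 0.34 (adjusted p = 4.53e-05) with the factor and -0.03 (adjusted p = 1.0) without it. At 6 hpci the levels of csf3r, lyz and lcp1 in SF lay below those in PC with no overlap, and those of spi1b overlapped in 1 ventricle. For spi1b the difference was -0.74 ± 0.32 (adjusted p = 0.145) with the factor and -1.61 (adjusted p = 7.87e-05) without it, for lcp1 0.27 ± 0.30 and -1.23 (adjusted p = 0.0119), and for lyz -0.25 ± 0.92 and -1.83 (adjusted p = 0.0333).

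Whether the response to cryo-injury itself differed, the SF change minus the PC change, was tested as an interaction. With the factor edgeR called 0 of 13 genes at 6 hpci (0.0% of all genes), 1 dpci (0.314%), 3 dpci (0.117%), 7 dpci (0.986%), 14 dpci (0.949%) and 30 dpci (0.4%). Unadjusted p-values under 0.05 numbered 3, 4, 1, 1, 1 and 1 of 13, and DESeq2 called 1 at 7 dpci (lcp1, chosen after its values were seen) and 0 at the other times. Without the factor 0 of 13 were called at 6 hpci (0.0%), 1 dpci (0.123%), 3 dpci (0.101%), 7 dpci (0.458%), 14 dpci (0.581%) and 30 dpci (0.219%), with 3, 2, 0, 0, 0 and 1 unadjusted p-values under 0.05. At 6 hpci the interaction of lcp1 was -1.28 ± 0.37 (adjusted p = 0.269) with the factor and -1.32 (adjusted p = 0.61) without it, and that of MPEG1 15353 was -2.26 ± 0.66 (adjusted p = 0.269) and -2.39 (adjusted p = 0.389). The calls of csf3r, ncf1, lcp1, spi1b and lyz at 6 hpci in PC, and not in SF, with the factor are therefore not shown to differ between the populations.

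Later stages were set against earlier ones after cryo-injury. In SF at 7 dpci against 3 dpci 5 of 13 were called with the factor (1 higher, csf1rb, and 4 lower), against 4.27% of all genes, and 4 without it, against 3.82%. lcp1 fell by 1.61 on the log2 scale (SE 0.25, adjusted p = 1.81e-06; -1.35, adjusted p = 0.00603 without the factor), with 112, 155, 140, 122 and 122 CPM at 7 dpci, against 460, 287, 305, 377 and 227 CPM at 3 dpci. The groups did not overlap, and the call held in the 5 leave-outs of both fits. MPEG1 15353 fell by 1.47 (SE 0.32, adjusted p = 0.00102, lost without replicate 4; -1.17, adjusted p = 0.0398 without the factor, lost without replicate 3, 4 or 5), and with the 3 libraries that stand apart left out it was not called without the factor (-1.13, adjusted p = 0.0509). In PC at 7 dpci against 3 dpci lcp1, MPEG1 15353, LYZ 31427 and ncf1 were called lower with the factor (4 of 13 against 2.05%), and 0 without it (1.82%; 4 of 13 with an unadjusted p under 0.05).

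At 30 dpci against 7 dpci the fit with the factor called 0 of 13 in SF (1.73%; 5 of 13 with an unadjusted p under 0.05; 0 by DESeq2) and 0 in PC (2.97%; 3 of 13; 0 by DESeq2). Without the factor 5 of 13 were lower in SF (8.74%) and 6 in PC (9.12%). csf1ra had 38.4, 44.5, 23.9, 47.7 and 42.3 CPM in SF and 68.2, 43.1, 43.7, 43.6 and 56.7 CPM in PC at 30 dpci, all below the values at 7 dpci. Its change was -0.86 ± 0.32 (adjusted p = 0.164) with the factor and -1.60 (adjusted p = 3.16e-06) without it in SF, and -0.85 ± 0.30 (adjusted p = 0.0872) and -1.43 (adjusted p = 3.71e-05) in PC. spi1b did likewise without the factor, at -1.67 in SF and -1.63 in PC.

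Other genes of the same cells were taken from lists by symbol, 24 of neutrophils, 39 of macrophages and 29 shared by leukocytes. Of the symbols listed, 21 of 29, 27 of 38 and 28 of 33 were found, and each copy counts as a gene. In the macrophage list mfap4 and mrc1b have several copies each, and cd68, cd163, trem2 and cx3cr1 were not found. Each list holds genes with few reads, such as npsn (22), timd4 (12) and cebpa (9), for which a call is unlikely. At 6 hpci 3 of 24 neutrophil genes rose in SF (0.65% of all genes called) and 10 of 24 in PC (2.17%) with the factor, with a median log2 change of 0.95 in SF and 1.50 in PC. Without it 4 rose in SF (1.47%) and 13 in PC (3.3%), and with DESeq2 and the factor 5 in SF. Calls on this list were also made at later times and after sham surgery. At 1 dpci in SF edgeR called 0 higher with the factor (1.17% of all genes called) and 7 without it (4.96%). With the factor 3 had an unadjusted p under 0.05 there and DESeq2 called 0. In PC 4 were higher with the factor (1.42%) and 10 without it (4.15%). At 3 dpci 3 were higher in SF with the factor (4.55%) and 9 without it (7.37%). In PC at 3 dpci 6 were higher with the factor (1.89%) and 9 without it (3.33%). At 6 hps against uninjured ventricles 6 were higher in SF with the factor and 4 without it, and 9 in PC with it and 5 without it, beside 6.74%, 5.89%, 5.1% and 4.48% of all genes. mmp9, a collagenase stored in neutrophils, had 225 ± 220 CPM in SF and 376 ± 187 CPM in PC at 6 hpci, against 21.0 ± 31.7 CPM in SF and 11.8 ± 7.24 CPM in PC at 6 hps, and rose by 2.99 ± 0.49 (adjusted p = 4.96e-05) in SF and 4.51 ± 0.52 (adjusted p = 3.38e-10) in PC. mmp13a, a second collagenase, rose by 2.80 ± 0.52 (adjusted p = 0.000449) in SF and 3.25 ± 0.51 (adjusted p = 4.3e-06) in PC. alox5ap, which serves leukotriene synthesis, rose by 2.14 ± 0.53 (adjusted p = 0.0215) in SF and 3.03 ± 0.51 (adjusted p = 1.54e-05) in PC. cyba, the membrane subunit of the NADPH oxidase with which ncf1 works, rose in PC by 2.05 ± 0.34 (adjusted p = 1.36e-05). All 7 of these changes were called without the factor too.

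Of the macrophage genes 0 of 39 were called in SF at 6 hpci by edgeR in either fit. The share of all genes called there was 0.65% with the factor and 1.47% without it. An unadjusted p under 0.05 was found for 2 with the factor and 4 without it, and DESeq2 called 0. In PC at 6 hpci 3 were higher with the factor (2.17% of all genes called) and 5 without it (3.3%). The median log2 change with the factor was -0.10 in SF and 0.29 in PC. With the factor, at 1 dpci 4 of 39 were higher and 1 lower in SF (1.17% of all genes called), and 6 higher and 1 lower in PC (1.42%), and at 3 dpci 4 were higher and 1 lower in SF (4.55%) and 5 higher in PC (1.89%). Without the factor 13 were higher in SF (4.96%) and 18 in PC (4.15%) at 1 dpci, with 1 lower in each, while at 3 dpci 13 were higher in SF (7.37%) and 12 in PC (3.33%). c1qa, a subunit of complement C1q made by macrophages, rose in both populations in both fits at 1 dpci (2.0 ± 0.40 in SF and 1.37 ± 0.36 in PC), 3 dpci (1.32 ± 0.33 and 1.15 ± 0.31) and 7 dpci (1.9 ± 0.57 and 1.74 ± 0.53). At 3 dpci its level was 83.8 ± 48.5 CPM in SF and 66.9 ± 20.4 CPM in PC, against 26.3 ± 3.16 CPM in SF and 25.8 ± 9.48 CPM in PC at 3 dps. ctss2.1, a cathepsin, rose at 1 dpci in SF (1.73 ± 0.35, adjusted p = 0.00152) and PC (1.20 ± 0.33, adjusted p = 0.0291), and without the factor the changes were 2.95 in SF and 2.4 in PC, both called. Several genes carry the symbol mfap4, and the values here are of ENSAMXG00000030565 (7391 reads) alone. Another, ENSAMXG00000041310, had 8610 reads, and its changes are not given. ENSAMXG00000030565 rose at 3 dpci in SF (2.57 ± 0.59) and in PC (1.81 ± 0.56). It fell by 2.29 in PC at 1 dpci, where 37.3 ± 11.9 CPM stood against 113 ± 83.1 CPM at 1 dps. All 3 changes were called without the factor too (3.2, 2.33 and -1.59).

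Of the 29 leukocyte genes 0 were called by edgeR in SF at 6 hpci in either fit. The share of all genes called there was 0.65% with the factor and 1.47% without it. An unadjusted p under 0.05 was found for 7 with the factor and 11 without it, and DESeq2 called 0. In PC at 6 hpci 11 were higher with the factor (2.17% of all genes called) and 19 without it (3.3%). The median log2 change with the factor was 0.44 in SF and 1.36 in PC. laptm5, a lysosomal protein of blood cells, had 82.4 ± 21.9 CPM in PC at 6 hpci, against 24.1 ± 4.72 CPM at 6 hps, and rose by 1.56 ± 0.22 (adjusted p = 2.1e-07). rac2, a GTPase of leukocyte movement, rose there by 1.23 ± 0.25 (adjusted p = 0.000421), ptpn6, a phosphatase of blood cells, by 1.37 ± 0.31 (adjusted p = 0.00269) and arpc1b, of the actin-branching Arp2/3 complex, by 1.01 ± 0.22 (adjusted p = 0.00159). Without the factor these 4 changes were 1.78, 1.51, 1.78 and 1.25, all called. The median of all genes was 0.03 in SF and 0.02 in PC in these comparisons. Between SF and PC at 1 dps 17 of 29 were called higher in SF with the factor (7.39% of all genes called) and 4 without it (6.96%). The interaction by edgeR called 0 of the 29 at 6 hpci in both fits (10 with an unadjusted p under 0.05 with the factor and 8 without it, and 1 called by DESeq2 with the factor). At 1 dpci it called 2, both with a smaller change in SF than in PC, in both fits. Of all genes it called 0.314% there with the factor and 0.123% without it.

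The growth factors of these receptors were low. csf3a, a ligand of csf3r, was at 3.81 ± 2.40 CPM in SF and 1.13 ± 1.56 CPM in PC at 6 hpci, against 1.86 ± 0.757 CPM in SF and 1.51 ± 2.09 CPM in PC at 6 hps, and was called in neither population. At 1 dpci in PC it was at 3.01 ± 1.30 CPM, against 0.123 ± 0.276 CPM at 1 dps, called without the factor and not with it (adjusted p = 0.163). csf1a, a ligand of the csf1r receptors, was at 5.21 ± 5.0 CPM in SF and 13.2 ± 7.22 CPM in PC at 6 hpci, against 5.80 ± 4.13 CPM in SF and 9.79 ± 10.1 CPM in PC at 6 hps, and csf1b never averaged above 1.52 CPM. csf1b was listed at 0 in all 5 SF ventricles at 7 dpci, against 1.52 ± 2.64 CPM in uninjured ones, and was called lower without the factor (adjusted p = 0.019) and not with it (adjusted p = 0.173). That call rests on few reads, since csf1b had 34 in all 96 libraries and its SD in uninjured SF ventricles exceeded its mean. csf1a was called only without the factor, as higher in PC at 3 dpci (2.44, adjusted p = 0.0426) and as lower in SF at 30 dpci than at 7 dpci (-2.69, adjusted p = 0.0462). csf3a was called lower in SF at 7 dpci than at 3 dpci with the factor (-3.52 ± 1.12, adjusted p = 0.0382) and not without it. il34, their other ligand, was called lower with the factor in SF at 1 dpci (-1.54 ± 0.40, adjusted p = 0.0213) and at 7 dpci (-1.91 ± 0.54, adjusted p = 0.0293), and not without it. It was called higher in SF at 30 dpci than at 7 dpci in both fits (2.01 ± 0.45, adjusted p = 0.0044), at 15.5 ± 3.70 CPM against 7.01 ± 2.84 CPM. Between SF and PC it was called higher in SF with the factor at 1 dps (1.72 ± 0.45) and 14 dpci (1.27 ± 0.42), and not without it.

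Over the 20 group means of log2(CPM + 1), among 7938 genes with a mean of at least 5 CPM, the 5 genes most like MPEG1 15353 were ctss2.1 (r = 0.937), psap (0.936), npc2 (0.936), tpp1 (0.928) and ctsba (0.92). Those most like lcp1 were rbm47 (r = 0.969), NCKAP1L (0.961), tcirg1b (0.953), ptpn6 (0.951) and cnp (0.951). mpx was too sparse for this. Chosen after their values were seen, the genes nearest to csf1ra were c1qa (0.952) and c1qb (0.946), the nearest to lyz LECT2 (0.906), CPA1 (0.877), alox5ap (0.875) and slc6a7 (0.873), and the nearest to csf1rb col1a1a (0.92), a collagen of fibroblasts. Those nearest to LYZ 31427 were atp6v1ba (0.947), ctsz (0.936), atp6ap1b (0.929) and tcirg1b (0.92), and its r was 0.87 with csf1ra and 0.23 with lyz. The 20 points share libraries and scaling between genes, and these correlations are descriptions.

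Marker genes of other blood cells were summed as well. The 8 T and NK cell genes summed to a group mean of 41.2 CPM (21.5 to 64.4) in PC at 7 dpci, against 8.86 CPM (7.48 to 11.6) in uninjured PC ventricles. In SF the sum was 21.3 CPM (9.35 to 30.9) at 7 dpci, against 22.6 CPM (21.6 to 23.6) in uninjured ventricles. Its genes moved in both directions there. In SF lck (7.14 against 13.6 CPM) and itk (0 against 0.653 CPM) were lower at 7 dpci. CD247 (4.46 against 2.23 CPM), cd4-1 (3.4 against 1.09 CPM) and zap70 (1.08 against 0.327 CPM) were higher, and the others changed less. In PC at 6 hpci the T and NK cell sum was 6.54 CPM (5.08 to 7.72), against 10.5 CPM (7.66 to 15) at 6 hps. The 5 thrombocyte genes summed to 108 CPM (83.4 to 139) in SF and 93.9 CPM (42.7 to 156) in PC at 6 hpci. At 6 hps they summed to 52.2 CPM (26.4 to 62.4) in SF and 59.4 CPM (35.6 to 84.3) in PC, with no overlap in SF. Most of the SF difference was thbs1b, at 62.7 CPM against 21.9 CPM. In SF itga2b (10.8 against 1.38 CPM) and mpl (8.14 against 2.0 CPM) were higher too. There gp1bb was near level (15.7 against 14.9 CPM) and gp9 was lower (10.9 against 12.1 CPM). The 5 B cell genes summed to 47.0 CPM (33.0 to 60.6) in SF at 3 dpci, against 17.2 CPM (8.47 to 29.3) at 3 dps, again with no overlap. Each of the 5 was higher there. In PC at 3 dpci they summed to 35.3 CPM (18.8 to 49.2), against 21.2 CPM (14.2 to 31.2) at 3 dps, with overlap. Most of this PC difference was blnk (25.2 against 10.4 CPM). IGHM was lower (0.737 against 1.88 CPM), cd37 was near level (7.85 against 7.82 CPM), and cd79a and cd79b were slightly higher. The 5 B cell genes summed to 14.5 CPM (7.66 to 27.2) in PC at 6 hpci, against 8.05 CPM (2.92 to 16.7) at 6 hps. Most of that was blnk too (10.1 against 3.52 CPM), with IGHM and cd37 lower. Erythroid genes, a sign of how much blood a ventricle held, summed to 27485 CPM (10020 to 67630) in SF and 15749 CPM (3651 to 37241) in PC at 6 hpci, against 22172 CPM (9357 to 46260) in SF and 12090 CPM (2303 to 38221) in PC at 6 hps. At 3 dpci they summed to 34963 CPM (22491 to 48065) in SF and 7481 CPM (2880 to 12353) in PC. At 3 dps the sums were 41033 CPM (7476 to 81909) in SF and 25834 CPM (2894 to 102326) in PC, with ranges that overlapped those at 3 dpci. In PC at 6 hpci all 5 B cell and 8 erythroid genes had reads, and 3 of the 8 T and NK cell genes (cd8b, il7r and itk) were at 0. The part of blood content and of these cell types in the levels of the neutrophil and macrophage genes was not tested.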

How the data were processed

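Ventricles were sequenced by 3′ end counting (QuantSeq 3′ FWD libraries). Per the submitters' processing notes and methods, bcl2fastq 2.20.0, Trim Galore 0.6.4 and STAR 2.7.6a were used, with assembly Mexican tetra 2.0 and a customised Ensembl 103 annotation. The authors deposited whole-number counts of reads per gene, and these counts were analysed. From the deposited table of regularised log2 values only the gene symbols were taken. Strand use and the treatment of reads that map to several genes are not given in the sources used here.

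Genes that reached 1 CPM in 1 or more of the 96 libraries were fitted together with edgeR 4.0.16 in R 4.3.3 (TMM scaling, quasi-likelihood test, Benjamini-Hochberg adjustment over all genes tested), with a coefficient per group and 1 RUVg factor from genes of low variation (coefficient of variation below the median). A gene was called at an adjusted p under 0.05 and a fold change above 2. CPM values use TMM library sizes. The same test without the factor, DESeq2 1.42.0, other filters and scalings, 2 factors, a replicate block and only the groups compared were tried. Each replicate number was also left out in turn, from all groups that held it at once. Leaving out the 3 libraries that stand apart, and the leave-outs without the factor, were chosen after seeing the data. The scripts were tested on simulated data.

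Members and lists were chosen with earlier results of these data known. The text names every member and, of each list, the 4 genes of smallest adjusted p over the comparisons after cryo-injury, all growth factors, and the 5 genes most like MPEG1 15353 and lcp1. A list gene that the rule names is not reported here. The labels number single ventricles, and p-values measure the spread between these. Libraries held 672292 to 2586602 counts, which limits the precision of genes near 1 CPM.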

Additional observations from a re-analysis of the deposited data

Results flagged for a closer look

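In each group of 5, a ventricle was picked out where, on the log2(CPM + 1) scale, its distance to the nearest other was more than 0.71 of the range of the group (Dixon's criterion), among the 9 well-covered genes. Of 162 groups 9 gave such a ventricle, and chance gives about 1 in 20. On the CPM scale, tried after the data were seen, 23 ventricles passed, 8 of them among the 9. Those that passed on the CPM scale alone include LYZ 31427 in PC 14 dpci replicate 2, lyz in SF 3 dpci replicate 1 and spi1b in PC 3 dps replicate 5 (386 CPM, against 43.3 to 108).

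For ncf1, SF 1 dpci replicate 2 had 46.6 CPM (9.24 to 12.0 in the other 4) and PC 14 dpci replicate 2 had 24.6 CPM (7.32 to 10.2). For lcp1, PC 3 dps replicate 5 had 690 CPM (60.0 to 111). For lyz, SF 1 dpci replicate 5 had 4.62 CPM (1.39 to 1.91). For csf1ra, PC 1 dps replicate 1 had 72.8 CPM (21.6 to 30.8), PC 1 dpci replicate 3 had 143 CPM (88.1 to 100) and PC 14 dpci replicate 2 had 98.4 CPM (48.2 to 58.4). In SF at 30 dpci the ventricle apart was the lowest: csf1rb in replicate 3 had 0.724 CPM (2.6 to 3.25) and MPEG1 15353 in replicate 5 had 5.21 CPM (8.61 to 10.4).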

How the results depend on the processing

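Of the 56 calls with the factor, DESeq2 kept 50 of the 55 it tested, its size factors 53, no filter 53, the replicate block 52, leaving out the 3 libraries that stand apart 39, only the groups compared 27, no factor 21, 2 factors 4 and a filter of 10 counts in 5 libraries 7 of 55. Leaving out replicates 1 to 5 in turn kept 41, 34, 28, 29 and 36. In every alternative 0 of 56 held. The factor was estimated anew under the filter of 10 counts, where its correlation with the factor used was 0.417 in size, and in the leave-outs, at 0.938 to 0.999. The cause of the changes below was not tested.

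Calls after cryo-injury numbered 4 in SF and 10 in PC. They were 1 in SF and 1 in PC with 10 counts in 5 libraries, 29 and 27 with no factor, 1 and 1 with 2 factors, 29 and 31 with the 3 libraries left out and no factor, and over the leave-outs 2 to 11 in SF and 1 to 20 in PC with the factor, and 18 to 31 in SF and 19 to 30 in PC without it. The 10 calls of sham against uninjured became 4 with 10 counts, 6 with no factor, 0 with 2 factors, 5 with only the groups compared, 5 with the 3 libraries left out, and over the leave-outs 3 to 11 with the factor and 2 to 6 without it. SF against PC without cryo-injury gave 9, and 3 with no factor, 2 with 2 factors, 3 with the 3 libraries left out and no factor, 3 with only the groups compared, 20 with no filter, and over the leave-outs 3 to 8 with the factor and 1 to 4 without it. After cryo-injury it gave 14, and 6 with 10 counts, 2 with 2 factors, 9 with the 3 libraries left out and no factor, 7 with only the groups compared, 8 with the 3 libraries left out, 33 with no filter, and over the leave-outs 4 to 11 with the factor and 7 to 13 without it. The interaction gave 0, and 1 each with 2 factors, DESeq2, the 3 libraries left out and no filter, 2 with only the groups compared, and over the leave-outs 0 to 1 with the factor and 0 without it. Later against earlier stages gave 9, and 3 with 10 counts, 4 with 2 factors, 15 with no factor, 15 with the 3 libraries left out and no factor, and over the leave-outs 6 to 11 with the factor and 11 to 15 without it.

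Some log2 changes turned. With 10 counts in 5 libraries those at PC 6 hps were -0.59 for csf3r, -0.43 for ncf1, -0.56 for lcp1 and -0.18 for LYZ 31427, and lcp1 at PC 1 dps was -0.37. Between SF and PC they were -0.87 for ncf1 and -0.63 for lcp1 at 1 dpci, -0.33 for LYZ 31427 at 3 dpci, and -0.50 at 14 dpci and -0.13 at 30 dpci for lcp1. With no factor SF against PC gave -0.08 (6 hps), -0.31 (3 dps) and -0.35 (1 dpci) for ncf1, and -0.29 (1 dpci), -0.17 (14 dpci) and -0.03 (30 dpci) for lcp1. With 2 factors it gave -0.44 for ncf1 at 1 dpci and -0.07 for lcp1 at 14 dpci. With the 3 libraries left out and no factor it gave -0.08 (6 hps) and -0.34 (1 dpci) for ncf1, -0.28 (1 dpci) and -0.04 (30 dpci) for lcp1 and -0.15 for LYZ 31427 at 3 dpci, and lyz in SF at 7 against 3 dpci was 0.23.

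Leaving out a replicate with the factor turned 0 of the 56 changes. The turns below came from leave-outs that also dropped the factor, and each range covers both kinds: csf3r at PC 6 hps ran from -0.02 to 2.55 (1.13 to 2.55 with the factor and -0.02 to 0.52 without it) and lyz in SF at 7 against 3 dpci from -3.85 to 0.29. Between SF and PC, ncf1 ran from -0.39 to 1.91 at 6 hps, -0.56 to 2.27 at 3 dps, -0.81 to 1.53 at 1 dpci and -0.01 to 1.64 at 7 dpci, and lcp1 from -0.12 to 2.08 at 6 hps, -0.38 to 1.52 at 1 dpci, -0.6 to 1.6 at 14 dpci and -0.15 to 2.18 at 30 dpci. csf1rb ran from -0.07 to 1.91 at 3 dps, lyz from -0.23 to 4.93 and LYZ 31427 from -0.29 to 2.61 at 3 dpci, LYZ 31427 from -0.08 to 2.71 at 7 dpci and MPEG1 15353 from -0.08 to 2.19 at 30 dpci.

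With the replicate block the calls numbered 4, 10, 9, 9, 12, 0 and 9 in these 7 families, in the order given. Samples share only a replicate number: in 0 of 32 comparisons did every pair correlate above 0.1, and the mean correlation was 0.007 for equal and -0.002 for other numbers.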
